A study of Mus musculus with 31 samples.

Results

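The genes described here handle iron and other metals: the ferritin subunits *Fth1* and *Ftl1*, the iron carriers *Tfrc*, *Slc11a2*, *Slc11a1* and *Slc40a1*, the heme-degrading enzyme *Hmox1*, and the metallothioneins *Mt1*, *Mt2* and *Mt3*. They were taken by symbol from the count tables, and all 10 of them were found among the 55401 genes listed. Their levels are given in 31 libraries of bulk temporo-occipital cortex and of CD11b+ microglia, the cells that magnetic beads against the integrin subunit CD11b hold back from a suspension of the whole brain.

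All mice were 13 months old and of the C57Bl/6J background. APP/PS1 mice (A+) develop amyloid plaques because the prion protein promoter of the mouse drives mutant forms of the amyloid precursor protein (APPswe) and of presenilin 1 (PS1dE9). PLCγ2-P522R KI mice carry this variant of the phospholipase in the endogenous gene after CRISPR/Cas9 editing. The female groups were A-/Pwt/wt (cortex n = 1, CD11b+ n = 7), A+/Pwt/wt (cortex n = 4, CD11b+ n = 4) and A+/Pki/ki (cortex n = 4, CD11b+ n = 4). The male groups were WT (CD11b+ n = 3) and KI (CD11b+ n = 4), both without the APP/PS1 transgenes. The comparison of KI with WT asks what the variant does in microglia with and without amyloid pathology. The labels give males, A+ females and A- females of the CD11b+ libraries 3 different batch tags, so that APP/PS1 genotype and batch cannot be told apart.

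Cells take up iron bound to transferrin through the transferrin receptor (*Tfrc*), move it out of endosomes through DMT1 (*Slc11a2*) and, in phagocytes, out of phagosomes through NRAMP1 (*Slc11a1*). Surplus iron is stored in ferritin, a cage of heavy (*Fth1*) and light (*Ftl1*) chains, or leaves the cell through ferroportin (*Slc40a1*), and heme oxygenase 1 (*Hmox1*) frees the iron of heme. Metallothioneins bind zinc and copper. In the brain, microglia and border macrophages clear iron from dying cells, oligodendrocytes are rich in ferritin, endothelial cells of brain vessels carry the transferrin receptor, and *Mt1*, *Mt2* and *Mt3* are known from astrocytes, *Mt3* also from neurons.

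Several of these transcripts carry an iron responsive element, a hairpin bound by iron regulatory proteins when iron is scarce. In a 5′ UTR it blocks translation, and in a 3′ UTR it protects the transcript from decay. Its pattern was searched in the Gencode transcripts of all members (a C, 5 bases, the loop CAGTGN and 5 bases that pair with the first 5, G with T allowed). It was found in 4 of 10 members at 7 places. The windows of 30 bases are printed because they separate the stored and exported side of iron handling, with the element before the coding sequence, from the uptake side, with the element after it. The loop is in capitals. *Fth1* (chr19:9982732-9982761, plus strand), *Ftl1* (chr7:45459778-45459807, minus strand) and *Slc40a1* (chr1:45925464-45925493, minus strand) held 1 element each in the 5′ UTR. *Tfrc* held 4 in its 3′ UTR (chr16:32631219-32631248, chr16:32631598-32631627, chr16:32631663-32631692 and chr16:32631710-32631739, plus strand). All positions are on GRCm38.
Fth1: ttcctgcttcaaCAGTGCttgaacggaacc
Ftl1: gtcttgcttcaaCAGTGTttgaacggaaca
Slc40a1: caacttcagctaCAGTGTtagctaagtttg
Tfrc site 1: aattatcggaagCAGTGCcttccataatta
Tfrc site 2: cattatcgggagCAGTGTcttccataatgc
Tfrc site 3: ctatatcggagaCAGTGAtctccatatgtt
Tfrc site 4: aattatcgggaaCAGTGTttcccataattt

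This pattern was not found in *Slc11a2*, *Slc11a1*, *Hmox1* and the metallothioneins, which says only that no site of this exact form is in their transcripts. A hairpin with a mismatch or an extra base among the paired bases would have been missed. Because counts measure the amount of a transcript, an effect of the elements on translation is not visible in these data.

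*Mt1* and *Mt2* are induced by zinc and other metals through metal response elements before the gene. *Mt3*, *Mt2* and *Mt1* lie next to each other on the plus strand of chromosome 8 (94152607 to 94154146, 94172664 to 94173568 and 94179082 to 94180327). The core of this element, TGCACNC or TGCGCNC on either strand, was searched from 250 bases before to 50 bases after the RefSeq start (GRCm38.p6), windows that were available for 7 of 10 members. It occurred 3 times for *Mt1*, 4 times for *Mt2* and 1 time for *Mt3*, while 25.7% of 32841 windows of the same kind held it at least once and 0.52% held it 4 times or more. *Fth1*, *Ftl1* and *Slc11a1* had no match, and a window of *Tfrc* had 2 that overlap each other. The 250 bases before *Mt1* (chr8:94178839-94179088) and *Mt3* (chr8:94152357-94152606) are shown because both transcripts differed together between male groups. Capitals mark the core, which is present once here before the RefSeq start of *Mt1* and not before that of *Mt3*. The other matches of both genes lie after this RefSeq start. Whether transcription begins there in these cells was not tested, so they may still lie before the start in use.
Mt1: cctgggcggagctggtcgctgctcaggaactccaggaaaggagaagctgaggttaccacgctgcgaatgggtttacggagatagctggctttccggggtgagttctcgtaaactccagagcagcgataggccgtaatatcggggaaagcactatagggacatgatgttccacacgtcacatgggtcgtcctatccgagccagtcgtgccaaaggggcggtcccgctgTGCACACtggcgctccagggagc
Mt3: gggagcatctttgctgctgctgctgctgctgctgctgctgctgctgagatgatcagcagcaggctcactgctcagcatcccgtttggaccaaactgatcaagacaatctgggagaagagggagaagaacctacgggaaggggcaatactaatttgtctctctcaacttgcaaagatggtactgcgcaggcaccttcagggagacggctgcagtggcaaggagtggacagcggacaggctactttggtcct

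The libraries held 16.2 to 43.1 M counts, 25.2 to 43.1 M in cortex and 16.2 to 25.1 M in CD11b+ microglia. Levels are in CPM, the counts of a gene per M counts of the library, after TMM scaling, which sets libraries to a common scale by a trimmed mean of their ratios. All 10 microglia markers (such as *P2ry12* and *Tmem119*) were higher in CD11b+ microglia than in cortex, with sums of 12966 to 28755 against 392 to 845 CPM. RNA of other cells was also present in the CD11b+ libraries. The sum of 10 oligodendrocyte markers was 7176 to 80037 CPM against 3737 to 6260 in cortex. Of this sum, *Mbp* made up 4947 to 56250 CPM and *Mobp* 1671 to 19280 CPM, whereas *Mog* reached 2.55 to 35.8 CPM against 33.6 to 52.6 in cortex. By the test given below, 2 of these markers were higher and 5 lower in CD11b+ microglia than in cortex of A+/Pwt/wt mice. In A+/Pki/ki mice, 2 were higher and 3 lower, so the sum does not stand for all 10 markers. Astrocyte markers summed to 632 to 4639 CPM against 5269 to 7087, neuron markers to 174 to 4540 against 10501 to 12165, and endothelial and mural markers to 731 to 2929 against 233 to 400. Choroid plexus markers reached 9235 CPM (KI male mouse 84), neutrophil markers 1870 CPM (A+/Pki/ki mouse 335) and erythroid markers 1162 CPM (A-/Pwt/wt mouse 236). In bulk RNA, fewer cells of a type and less RNA per cell cannot be told apart.

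**Figure D1:**
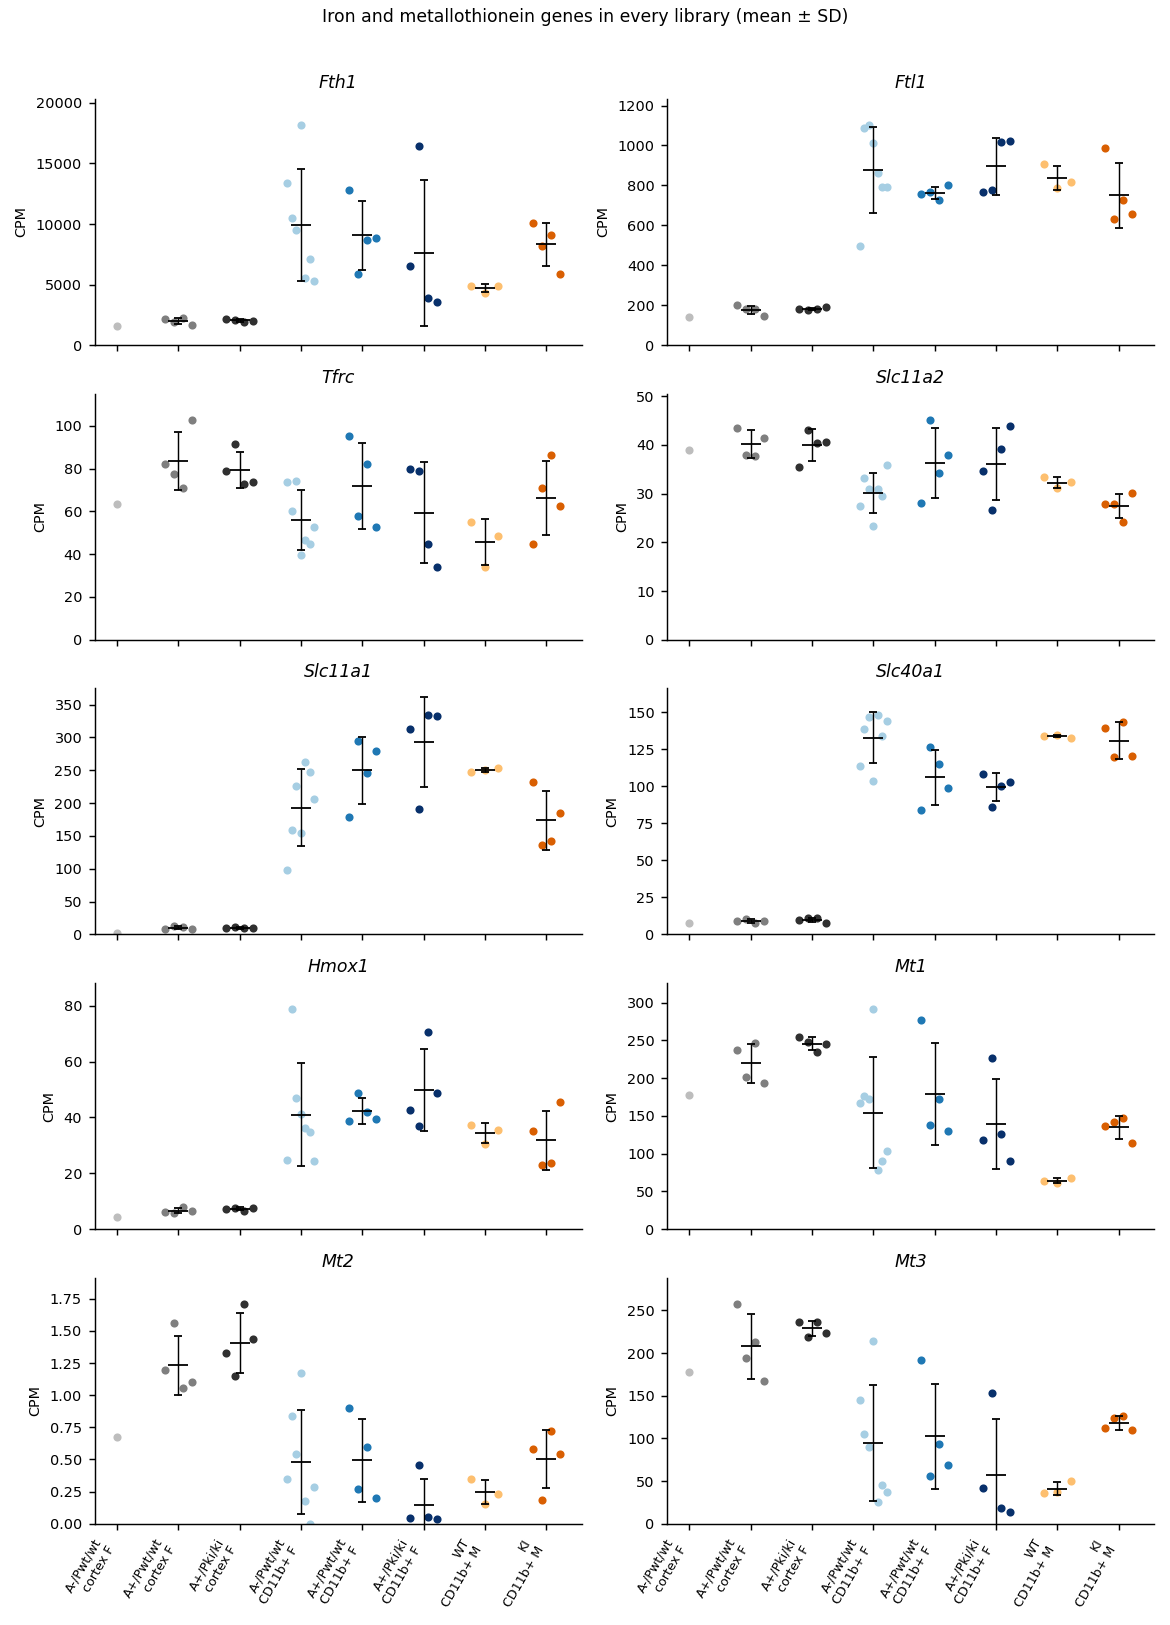
CPM of the 10 genes in each library (points), with mean and SD (bars) for groups of more than 1 library, in cortex of females (F, grey), CD11b+ microglia of females (blue) and of males (M, orange). The ferritins, *Slc11a1*, *Slc40a1* and *Hmox1* are higher in every CD11b+ library than in any cortex library, and the metallothioneins are not.

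CD11b+ microglia differed from cortex of the same genotype in 7 of 10 members in A+/Pwt/wt mice (5 higher, 2 lower) and in 8 of 10 in A+/Pki/ki mice (5 higher, 3 lower). The tissues differ in most genes, with 77.9% of 18541 genes called in A+/Pwt/wt mice (37.7% higher, 40.2% lower) and 76.6% of 18954 in A+/Pki/ki mice (36.8% higher, 39.8% lower), so these counts are near the background. A gene is called when its adjusted p in edgeR's quasi-likelihood test with Benjamini-Hochberg adjustment is under 0.05. CD11b+ cells came from the whole brain and cortex from 1 region. Higher in CD11b+ microglia of both genotypes were the ferritins, *Slc11a1*, *Slc40a1* and *Hmox1*. Levels of *Tfrc* and *Slc11a2* passed the test in neither.

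Per length (CPM per kb of the main transcript, without bases shared with other genes), *Fth1* was the most abundant member in both tissues, at 3813 to 19540 in CD11b+ microglia and 1669 to 2406 in cortex. *Ftl1* was next in CD11b+ microglia (981 to 2185 CPM per kb), followed by *Mt1* (112 to 531), *Mt3* (25.8 to 400), *Slc11a1* (42.7 to 145), *Slc40a1* (24.95 to 44), *Hmox1* (14.6 to 50.2), *Tfrc* (6.93 to 19.4) and *Slc11a2* (7.95 to 15.4). Neighbours in this order overlapped in their ranges over the 22 libraries, except *Fth1* and *Ftl1*, and *Ftl1* and *Mt1*. In cortex, *Mt1* (323 to 464) and *Mt3* (313 to 480) took the places after *Fth1* and overlapped with *Ftl1* (278 to 393). *Slc11a1* (0.977 to 5.71) and *Slc40a1* (2.22 to 3.23) were last there by median, and both overlapped with *Hmox1* (2.85 to 5.05).

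*Fth1* encodes the ferritin heavy chain, which oxidizes iron for storage (chromosome 19, 9980598 to 9985098, plus strand, ENSMUSG00000024661.7). In cortex it was 1628, 1937, 2182 and 2236 CPM in A+/Pwt/wt mice, 1877, 2016, 2064 and 2168 in A+/Pki/ki mice and 1551 in the A-/Pwt/wt mouse. In CD11b+ microglia it was 5868, 8650, 8867 and 12830 CPM in A+/Pwt/wt mice and 3542, 3858, 6544 and 16449 in A+/Pki/ki mice. The A-/Pwt/wt libraries (n = 7) ranged from 5298 to 18155 CPM (median 9505). Every CD11b+ library was above every cortex library, and the CD11b+ libraries of 1 female genotype differed among themselves by more than the genotype means. The log2 fold change (log2FC) of CD11b+ over cortex was 2.27 (SE 0.23, edgeR adjusted p = 4.47e-06) in A+/Pwt/wt and 2.02 (SE 0.49, edgeR adjusted p = 0.00519) in A+/Pki/ki mice.

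The 4 CD11b+ libraries with the most *Fth1* (A-/Pwt/wt mice 236 and 223, A+/Pki/ki mouse 335 and A+/Pwt/wt mouse 331) were ranks 3, 1, 2 and 5 of 22 for summed oligodendrocyte markers, with sums of 60132, 80037, 68620 and 57285 CPM. The libraries with the least *Fth1* (A+/Pki/ki mice 405 and 394) also had the lowest sums of these markers, 7275 and 7176 CPM. Per CPM of oligodendrocyte markers, *Fth1* was 0.147 to 0.538 in CD11b+ microglia and 0.349 to 0.462 in cortex. The part of oligodendrocyte RNA in the level of *Fth1* was not tested. Without the CD11b+ libraries above 50000 CPM of oligodendrocyte markers, a limit chosen after seeing the data, *Fth1* remained higher in CD11b+ microglia, with a log2FC of 2.07 (edgeR adjusted p = 2.72e-06) in A+/Pwt/wt and 1.32 (edgeR adjusted p = 0.000373) in A+/Pki/ki mice.

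**Figure D2:**
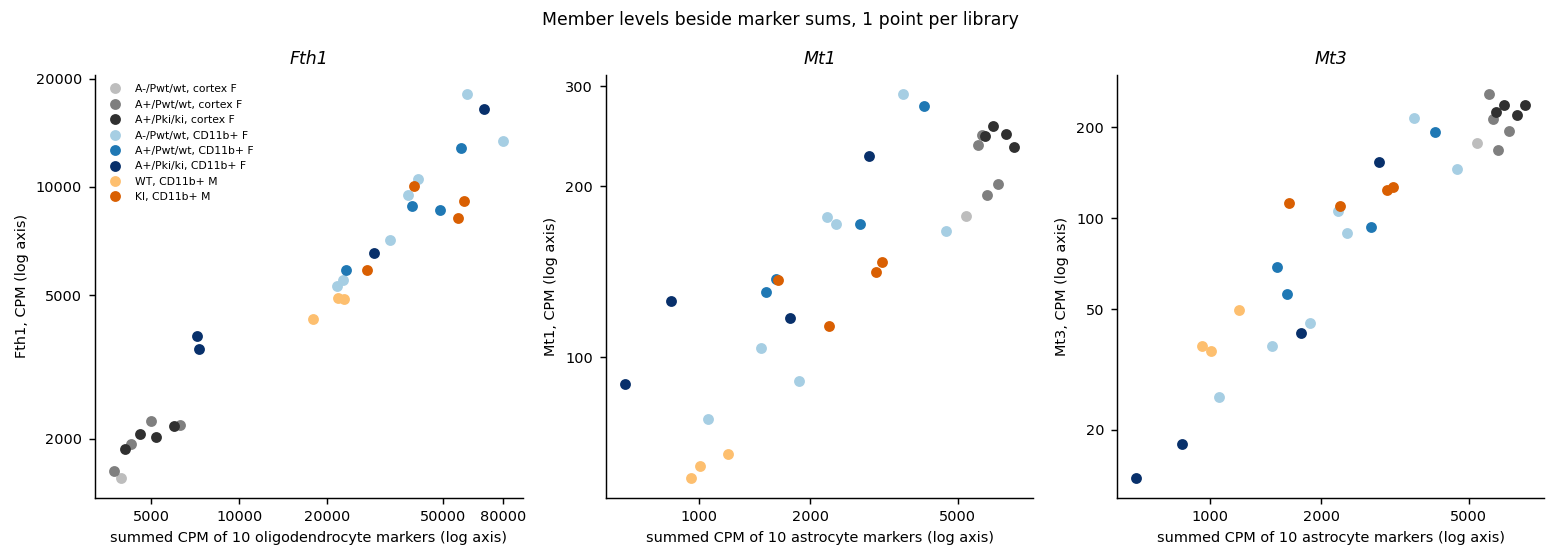
*Fth1* against the summed CPM of 10 oligodendrocyte markers, and *Mt1* and *Mt3* against that of 10 astrocyte markers, with 1 point per library and log scales on both axes (F, female; M, male). *Fth1* and *Mt3* are high in CD11b+ libraries with high sums, and A+/Pki/ki mice 394 and 405 stand at the low end of the CD11b+ libraries for both marker sums.

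*Ftl1*, the ferritin light chain that helps to form the iron core (chromosome 7, 45457944 to 45459884, minus strand, ENSMUSG00000050708.16), was less variable. It was 140 to 198 CPM in the 9 cortex libraries and 494 to 1101 CPM in the 22 CD11b+ libraries, so that the tissues did not overlap. Its log2FC of CD11b+ over cortex was 2.21 (SE 0.12, edgeR adjusted p = 4.39e-08) in A+/Pwt/wt and 2.43 (SE 0.15, edgeR adjusted p = 2.1e-06) in A+/Pki/ki mice. Of its exon bases, 34.6% are shared with *Gm10252* on the other strand or *Gm22133* on the same strand, and reads there cannot be assigned without strand. The ferritin pseudogenes *Ftl1-ps1*, *Ftl1-ps2*, *Ftl2-ps*, *Fth-ps2* and *Fth-ps3* had at most 166 counts in a library, and reads that match them and the parent gene equally were not counted.

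The ratio of the ferritin chains was even in cortex and uneven in CD11b+ microglia. *Fth1* over *Ftl1* was 10.5 to 12.6 (ratio of CPM) in all 9 cortex libraries, whatever the genotype. Across CD11b+ libraries it ran from 3.46 (A+/Pki/ki mouse 405) to 27.2 (A-/Pwt/wt mouse 223). The 3 WT males had 5.39, 5.45 and 6.01, and the 4 KI males 9.01 to 13.1, with no overlap. Oligodendrocyte marker sums of these males did not overlap either, at 17843 to 22941 CPM in WT and 27299 to 58650 CPM in KI. Their part in the ratio was not tested. Female genotypes overlapped, with 3.46, 3.8, 8.52 and 21.2 in A+/Pki/ki and 7.67, 11.1, 11.9 and 17 in A+/Pwt/wt mice.

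**Figure D3:**
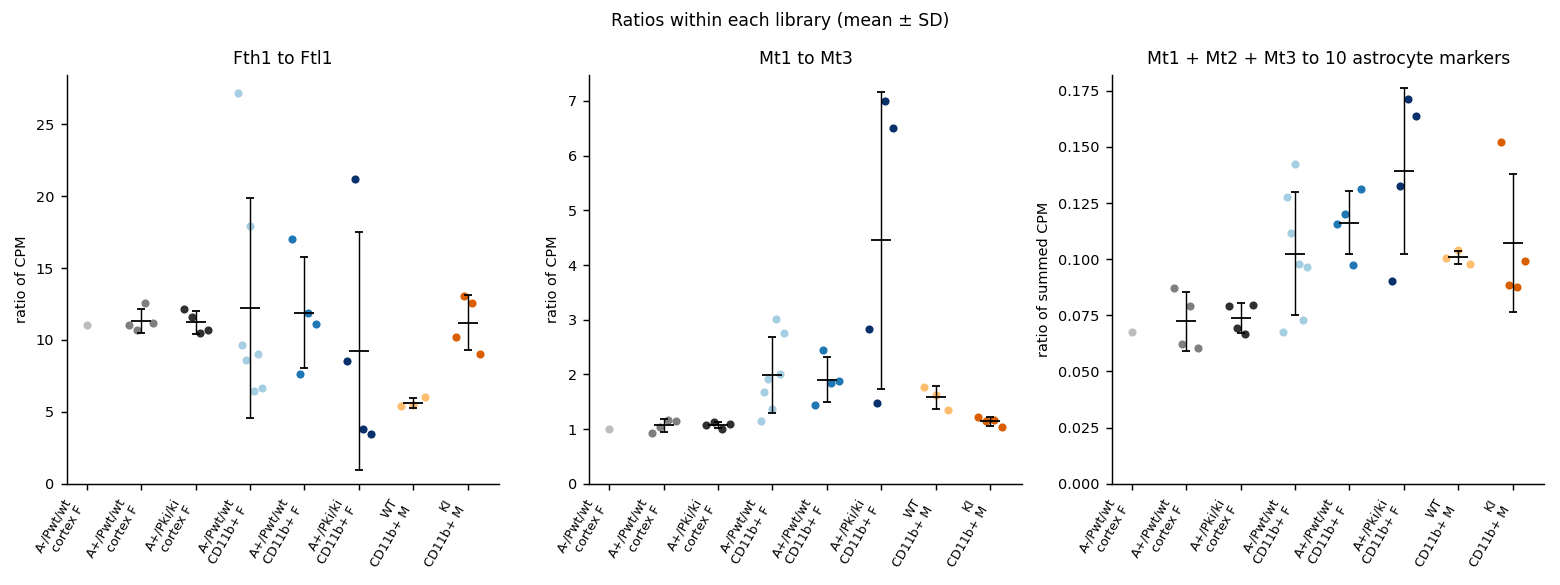
Ratios of CPM within each library (points) with mean and SD (bars): *Fth1* to *Ftl1*, *Mt1* to *Mt3*, and the summed metallothioneins to 10 summed astrocyte markers (F, female; M, male). The ferritin ratio of the cortex libraries lies between 10.5 and 12.6, and that of the CD11b+ libraries between 3.46 and 27.2.

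*Slc11a1* (NRAMP1, chromosome 1, 74375195 to 74386062, plus strand, ENSMUSG00000026177.11) encodes a pump that moves divalent metals out of phagosomes, which starves engulfed microbes. Transcript levels do not show whether this protein works in these mice. *Slc11a1* had the largest tissue difference of the 10 members. In cortex it was 8.5, 8.9, 10.9 and 13.2 CPM in A+/Pwt/wt and 9.04, 9.27, 9.9 and 11 in A+/Pki/ki mice, against 2.26 CPM in the single A-/Pwt/wt mouse. The CD11b+ libraries held 98.8 to 335 CPM. CD11b+ over cortex gave a log2FC of 4.69 (SE 0.23, edgeR adjusted p = 1.55e-08) in A+/Pwt/wt and 5.02 (SE 0.22, edgeR adjusted p = 5.32e-07) in A+/Pki/ki mice.

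*Slc40a1* (ferroportin, chromosome 1, 45908068 to 45926523, minus strand, ENSMUSG00000025993.10) is the known iron exporter of vertebrate cells. It was 7.5 to 10.9 CPM in cortex and 84.1 to 148 CPM in CD11b+ microglia, with a log2FC of 3.65 (SE 0.16, edgeR adjusted p = 9.44e-09) in A+/Pwt/wt and 3.45 (SE 0.13, edgeR adjusted p = 3.93e-07) in A+/Pki/ki mice. *Hmox1* (chromosome 8, 75093621 to 75100589, plus strand, ENSMUSG00000005413.8) was 4.48 to 7.92 CPM in cortex and 22.8 to 78.8 CPM in CD11b+ microglia, with a log2FC of 2.77 (SE 0.14, edgeR adjusted p = 1.67e-08) and 2.89 (SE 0.21, edgeR adjusted p = 5.46e-06). Both were higher in every CD11b+ library than in any cortex library.

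*Tfrc* (chromosome 16, 32608920 to 32632794, plus strand, ENSMUSG00000022797.16) and *Slc11a2* (chromosome 15, 100387898 to 100425072, minus strand, ENSMUSG00000023030.16), which serve iron uptake, had overlapping ranges in the tissues. *Tfrc* was 63.3 to 103 CPM in cortex and 33.9 to 95.1 CPM in CD11b+ microglia (log2FC -0.13, SE 0.18, edgeR adjusted p = 0.525 in A+/Pwt/wt mice). *Slc11a2* was 35.4 to 43.5 CPM in cortex and 23.3 to 45.1 CPM in CD11b+ microglia (log2FC -0.05, SE 0.14, edgeR adjusted p = 0.758 in A+/Pwt/wt mice). Within CD11b+ libraries, *Tfrc* was lowest in WT male mouse 102 and A+/Pki/ki mouse 405 and highest in A+/Pwt/wt mouse 331. Endothelial and mural markers summed to 1213, 731 and 2718 CPM in these, and their part in the level of *Tfrc* was not tested.

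*Mt3*, a metallothionein known from astrocytes and neurons, was 167 to 258 CPM in cortex, 56.2, 69, 93.5 and 192 CPM in CD11b+ microglia of A+/Pwt/wt mice and 13.8, 18, 41.6 and 153 in those of A+/Pki/ki mice. It was lower in CD11b+ microglia than in cortex in A+/Pwt/wt mice (log2FC -0.94, SE 0.32, edgeR adjusted p = 0.019) and in A+/Pki/ki mice (log2FC -1.90, SE 0.71, edgeR adjusted p = 0.037). These calls rest on few libraries. Leaving out 1 library at a time gave edgeR adjusted p of up to 0.0602 in A+/Pwt/wt (lost without CD11b+ mouse 375, CD11b+ mouse 380 or cortex mouse 236) and up to 0.0911 in A+/Pki/ki mice, where every library but mouse 335 ended the call. Without the CD11b+ libraries above 50000 CPM of oligodendrocyte markers, the log2FC was -1.41 and -3.10 (edgeR adjusted p = 5.79e-05 and 5.94e-05).

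*Mt1* was 177 to 255 CPM in cortex and 61.2 to 291 CPM in CD11b+ microglia. It passed the test in A+/Pki/ki (log2FC -0.69, SE 0.26, edgeR adjusted p = 0.0369) and not in A+/Pwt/wt mice (log2FC -0.21, SE 0.21, edgeR adjusted p = 0.361). The difference between these tissue effects was not tested. Leaving out any of 7 libraries ended the call in A+/Pki/ki mice (edgeR adjusted p up to 0.0992), and without CD11b+ mouse 335 it held (log2FC -1.01, edgeR adjusted p = 5.17e-05). In A+/Pwt/wt mice, the call appeared without CD11b+ mouse 331 (log2FC -0.48, edgeR adjusted p = 0.00692). These 2 mice had the most *Mt1* and the most astrocyte RNA of their groups, 2869 and 4056 CPM.

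*Mt2* counts are not a measure of its transcript here. Of its 588 exon bases, 432 are covered by *Gm45774* on the other strand, and reads there cannot be assigned to either gene without strand. It was 0 to 1.17 CPM in CD11b+ microglia and 0.672 to 1.71 CPM in cortex, and *Gm45774* was at most 0.667 CPM. The values called lower in CD11b+ microglia (log2FC -1.24, edgeR adjusted p = 0.0175, and -3.16, edgeR adjusted p = 0.00206) are given for completeness.

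Beside the astrocyte markers of the same library, the sum of *Mt1*, *Mt2* and *Mt3* was 0.0606 to 0.0873 (ratio of summed CPM) in cortex and 0.0675 to 0.171 in CD11b+ microglia. For *Mt3* alone the ranges were close, 0.028 to 0.0453 in cortex and 0.0214 to 0.0685 in CD11b+ microglia. *Mt1* had 0.0315 to 0.0424 in cortex and 0.036 to 0.15 in CD11b+ microglia, and was highest relative to astrocyte RNA in A+/Pki/ki mice 394 and 405 (0.15 and 0.142), which had the least of it. Its ratio to *Mt3* was 0.92 to 1.16 in cortex and was 7 and 6.5 in these mice. The part of astrocyte RNA in the levels of *Mt1* and *Mt3* was not tested.

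A further list of 58 genes of iron and metal handling was read in the same fits. In the tissue comparison of A+/Pwt/wt mice, 27 of 55 tested genes were higher and 13 lower in CD11b+ microglia, where 37.7% and 40.2% of all genes were. The largest rises with a mean of at least 5 CPM were *Hfe*, the hemochromatosis protein that tunes iron sensing (13.7-fold), *Cd163*, the scavenger receptor for hemoglobin (11-fold), and *Nfe2l2*, the transcription factor of the antioxidant response (9.63-fold). The largest falls were *Slc30a3*, the zinc transporter of synaptic vesicles (29.7-fold), the mitochondrial iron-sulfur protein *Cisd1* (4.15-fold) and the manganese exporter *Slc30a10* (3.02-fold). In A+/Pki/ki mice, 28 of 55 were higher and 18 lower, where 36.8% and 39.8% of all genes were. The largest rises were those of *Lcn2*, which binds bacterial iron carriers (231-fold), and *Hp*, haptoglobin (37.2-fold), both known from neutrophils. Neutrophil markers summed to 1870 CPM in mouse 335 and 38.8 to 505 CPM in the other A+/Pki/ki mice, and their part in these values was not tested.

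**Figure D4:**
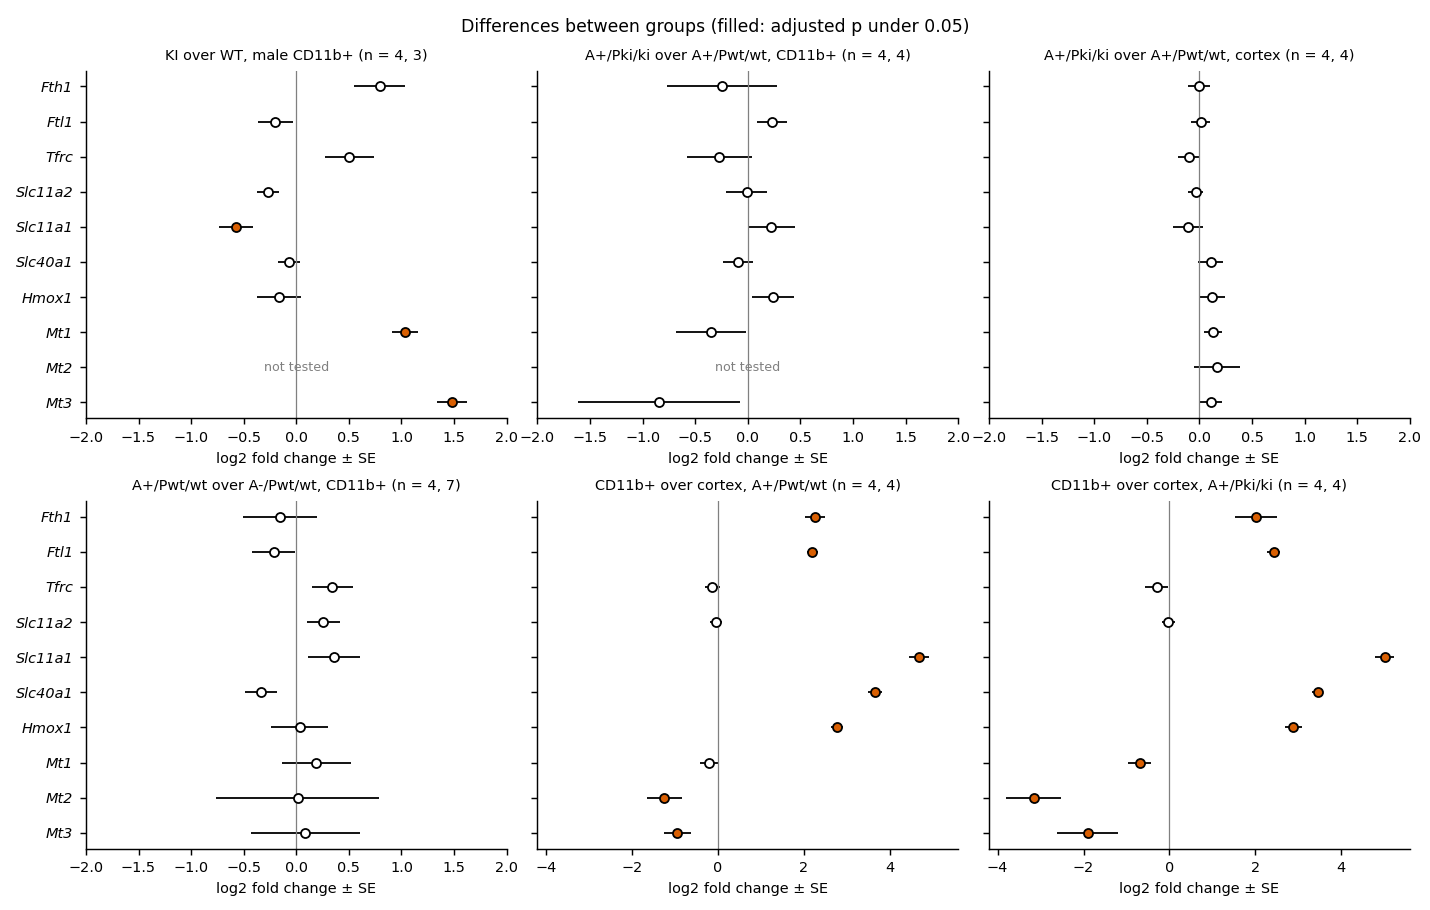
Log2 fold change and SE of each gene in 6 comparisons, with the number of libraries in the first and second group in each title. Filled points have an edgeR adjusted p under 0.05: 3 in KI against WT males, none in the 3 comparisons of female genotypes shown, and 7 and 8 between CD11b+ microglia and cortex.

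In males without APP/PS1, 3 of 9 members tested were called between KI and WT microglia: *Mt1* and *Mt3* were higher and *Slc11a1* was lower in KI. Of all 16373 genes tested, 16.4% were called, 11.1% higher and 5.26% lower. *Mt2* was below the count minimum of 10 counts in 3 libraries and was not tested. The median log2FC was -0.07 over the members and -0.0012 over all genes.

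*Mt3* was 36.4, 37.7 and 49.8 CPM in WT and 109, 112, 124 and 127 CPM in KI males. *Mt1* was 61.2, 64.3 and 67.5 CPM in WT and 114, 137, 141 and 147 CPM in KI males. Both genes were higher in every KI library than in any WT library. The log2FC was 1.48 (SE 0.14) for *Mt3* and 1.03 (SE 0.12) for *Mt1*, each with an edgeR adjusted p of 0.00374. Both calls held when each library was left out in turn (edgeR adjusted p of at most 0.0219).

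Astrocyte markers moved in the same direction. All 10 of them were called higher in KI males (median log2FC 1.16), and their sum was 952 to 1200 CPM in WT and 1639 to 3125 CPM in KI libraries, with no marker at 0. Relative to this sum, *Mt1* was 0.0562 to 0.0643 in WT and 0.047 to 0.0836 in KI, and *Mt3* was 0.0362 to 0.0415 in WT and 0.0406 to 0.0685 in KI, so that the groups overlapped. Neuron markers (10 of 10 higher, median log2FC 2.12) and oligodendrocyte markers (6 of 10 higher, median log2FC 1.06) were also higher. Without KI mice 136 and 139, which had over 50000 CPM of oligodendrocyte markers, the log2FC was 0.89 for *Mt1* (edgeR adjusted p = 0.0106) and 1.35 for *Mt3* (edgeR adjusted p = 0.00879). The part of astrocyte RNA in these differences was not tested.

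*Slc11a1* was 247, 251 and 254 CPM in WT and 136, 143, 186 and 232 CPM in KI males, without overlap (log2FC -0.57, SE 0.16, edgeR adjusted p = 0.0414). Microglia markers had a median log2FC of -0.36, and 1 of 10 was called, lower. Relative to the sum of these markers, *Slc11a1* was 0.00949 to 0.00981 in WT and 0.00799 to 0.00853 in KI males, which also did not overlap. The call was lost when any library except KI mouse 104 was left out (edgeR adjusted p up to 0.177), and without KI mice 136 and 139 (log2FC -0.33, edgeR adjusted p = 0.155).

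Ferritin heavy chain had a similar split of values without a call. *Fth1* was 4299, 4875 and 4915 CPM in WT and 5897, 8224, 9125 and 10059.8 CPM in KI males (log2FC 0.79, SE 0.25, edgeR adjusted p = 0.0561). It was called without KI mouse 104 or without KI mouse 84 (edgeR adjusted p down to 0.024), without the count minimum (log2FC 0.83) and by DESeq2 (log2FC 0.80). Oligodendrocyte markers summed to 17843 to 22941 CPM in WT and 27299 to 58650 CPM in KI males, and *Fth1* relative to this sum overlapped, with 0.212 to 0.241 in WT and 0.147 to 0.253 in KI. *Ftl1* was 789, 818 and 905 CPM in WT and 629, 655, 728 and 988 CPM in KI males, which overlap (log2FC -0.20, SE 0.17, edgeR adjusted p = 0.434).

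Among the remaining carriers, *Slc11a2* was 31.2, 32.3 and 33.4 CPM in WT and 24.2, 27.8, 27.8 and 30.2 CPM in KI males, without overlap and without a call (log2FC -0.27, SE 0.10, edgeR adjusted p = 0.0977). *Tfrc* had values of 33.9, 48.6 and 54.9 in WT and 44.9, 62.7, 71.1 and 86.4 CPM in KI males (log2FC 0.51, SE 0.24, edgeR adjusted p = 0.168). Of 10 endothelial and mural markers, 4 were called higher in KI males (median log2FC 0.78), and their part in the level of *Tfrc* was not tested. *Slc40a1* (log2FC -0.07, SE 0.10) and *Hmox1* (log2FC -0.16, SE 0.21) had edgeR adjusted p of 0.679 and 0.624.

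Of the further iron and metal genes, 4 of 52 tested were higher in KI males and 4 lower, a share near that of all genes (11.1% higher, 5.26% lower). Higher were the manganese exporter *Slc30a10* (2.3-fold, edgeR adjusted p = 0.0308), *Gpx4*, which reduces lipid peroxides and holds back ferroptosis (1.49-fold, edgeR adjusted p = 0.0154), the heme transporter *Slc48a1* (1.29-fold, edgeR adjusted p = 0.0494) and the synaptic zinc transporter *Slc30a3* (log2FC 2.21, edgeR adjusted p = 0.0136). Lower were *Slc25a37*, which brings iron into mitochondria (1.49-fold, edgeR adjusted p = 0.00528), *Lrp1*, a receptor for heme bound to hemopexin (1.4-fold, edgeR adjusted p = 0.0489), the lysosomal channel *Mcoln1* (1.25-fold, edgeR adjusted p = 0.0358) and *Ireb2*, which encodes an iron regulatory protein (log2FC -0.29, edgeR adjusted p = 0.0426). *Slc30a3* and *Ireb2*, which the rule for naming list genes does not take, were named after their values were seen. Without KI mice 136 and 139, 1 list gene was called.

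In CD11b+ microglia of APP/PS1 females, 0 of 9 members tested were called between A+/Pki/ki and A+/Pwt/wt mice, as were 0 of 17039 genes (0%), in edgeR. Of all genes, 575 had an unadjusted p under 0.05 and DESeq2 called 7. No member had an unadjusted p under 0.05 or was called by DESeq2. *Mt3* had the largest difference, -0.85 (SE 0.77, edgeR adjusted p = 0.853), where 3 of 4 A+/Pki/ki libraries (13.8, 18 and 41.6 CPM) were below every A+/Pwt/wt library (56.2 to 192 CPM) and mouse 335 (153 CPM) was not. With 1 library left out at a time it ran from -2.05 (without mouse 335) to -0.37, with an edgeR adjusted p of at least 0.0891. *Mt1* (log2FC -0.35, SE 0.33) had the same split of libraries, and left-out values of -0.66 to -0.08. For *Fth1* (log2FC -0.25, SE 0.52), 2 of 4 A+/Pki/ki libraries were below every A+/Pwt/wt library, and the left-out values were -0.94 (without mouse 335) to -0.01. *Ftl1* (log2FC 0.23, SE 0.14), *Slc11a1* (log2FC 0.22, SE 0.22) and *Hmox1* (log2FC 0.24, SE 0.20) had an edgeR adjusted p of 0.853 each. Genotypes overlapped in all 10 members. Medians of marker log2FC were -0.68 for astrocytes, -0.84 for neurons, -0.28 for oligodendrocytes and 0.22 for microglia, with no marker called. Their part in the values of the members was not tested.

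In cortex, 0 of 10 members were called between A+/Pki/ki and A+/Pwt/wt mice, as were 0 of 18640 genes (0%), in edgeR. Of all genes, 514 had an unadjusted p under 0.05 and DESeq2 called 11. The log2FC of members lay between -0.11 and 0.17, with none at an unadjusted p under 0.05 and none called by DESeq2. The closest to the threshold was *Mt1*, at 193, 202, 237 and 247 CPM in A+/Pwt/wt and 235, 246, 248 and 255 CPM in A+/Pki/ki mice (log2FC 0.13, SE 0.09, edgeR adjusted p = 1). None of 54 list genes was called.

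The KI effect in males and that in APP/PS1 females was compared as an interaction, in which sex, APP/PS1 and batch change together. No member was called in edgeR (0 of 10, and 0% of 17619 genes), with 4 of 10 at an unadjusted p under 0.05, and DESeq2 called *Mt1* (1.36, DESeq2 adjusted p = 0.0359). The interaction was 1.41 (SE 0.40, edgeR adjusted p = 0.143) for *Mt1*, 2.35 (SE 0.90, edgeR adjusted p = 0.149) for *Mt3* and -0.76 (SE 0.31, edgeR adjusted p = 0.155) for *Slc11a1*. Without A+/Pki/ki mouse 335, the count of genes called rose from 0 to 6199, where 17619 were tested with all libraries. In that fit 5 members were called, *Fth1* (1.70, edgeR adjusted p = 0.00741), *Slc11a1* (-1.01, 0.0113), *Mt1* (1.66, 0.00175), *Mt2* (4.22, 0.00545) and *Mt3* (3.5, 0.000858). *Mt2* counts are not a measure of its transcript, and the other A+/Pki/ki libraries held 1 count of it each. Without all CD11b+ libraries above 50000 CPM of oligodendrocyte markers, 4 members were called, the same without *Mt2*, which could not be tested, and the count of all genes was 2532. In this interaction, with all libraries, the median was 1.91 over astrocyte, 2.98 over neuron, 1.34 over oligodendrocyte and -0.54 over microglia markers, none of them called, and their part in the values of the members was not tested.

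In female CD11b+ microglia, 0 of 10 members were called between A+/Pwt/wt and A-/Pwt/wt mice, where 1.29% of 17355 genes were called by edgeR (1.01% higher, 0.282% lower). DESeq2 called none of them, and 1 had an unadjusted p under 0.05. *Slc40a1* was closest, at 84.1, 98.8, 115 and 126 CPM in A+/Pwt/wt mice and 104 to 148 CPM (median 139) in A-/Pwt/wt mice (log2FC -0.33, SE 0.15, unadjusted p = 0.0491 and edgeR adjusted p = 0.49). The values of A+/Pki/ki mice, 86.3, 99.9, 103 and 108 CPM, were compared with the same A-/Pwt/wt libraries (log2FC -0.39, SE 0.13, edgeR adjusted p = 0.174). DESeq2 called this second difference (DESeq2 adjusted p = 0.0218), as did edgeR without the libraries above 50000 CPM of oligodendrocyte markers (log2FC -0.43, edgeR adjusted p = 0.0219). Against the A-/Pwt/wt libraries, 0 of 10 members were called by edgeR in A+/Pki/ki mice, with 2 at an unadjusted p under 0.05, where 1.64% of 17446 genes were called (1.35% higher, 0.287% lower).

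*Slc11a1* was 179, 246, 280 and 294 CPM in A+/Pwt/wt, 191, 312, 333 and 335 CPM in A+/Pki/ki and 98.8 to 262 CPM (median 206) in A-/Pwt/wt mice, with overlap. Its log2FC over A-/Pwt/wt was 0.36 (SE 0.25, edgeR adjusted p = 0.743) and 0.63 (SE 0.26, edgeR adjusted p = 0.27). Per CPM of microglia markers, it was 0.0116 to 0.0139 in A+/Pwt/wt and 0.0114 to 0.0134 in A+/Pki/ki mice against 0.00755 to 0.0118 in A-/Pwt/wt mice, where the highest A- library overlapped with both. In cortex, the same ratio was 0.0118 to 0.0156 in all A+ libraries and 0.00577 in the A-/Pwt/wt library. In cortex of the single A-/Pwt/wt mouse, microglia markers were also at their lowest sum (392 CPM against 683 to 845 CPM), a difference with no replicate check.

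*Cd163*, the hemoglobin receptor and a marker of border macrophages, was the only one of 54 list genes called between A+/Pwt/wt and A-/Pwt/wt microglia (1.84-fold lower, edgeR adjusted p = 0.0485). None was called between A+/Pki/ki and A-/Pwt/wt microglia, where *Cd163* had a log2FC of -0.81 (edgeR adjusted p = 0.0638). Of 6 border macrophage markers, 2 were called lower in A+/Pwt/wt mice, *Cd163* being one of them. Their sum was 186 to 235 CPM in A+/Pwt/wt and 269 to 622 CPM in A-/Pwt/wt mice, and its part in the level of *Cd163* was not tested.

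Variation between libraries of the same group sorted the members. For each member, the genes with the most similar deviations from the group mean over the 22 CD11b+ libraries were sought among 9708 genes at a mean of 10 CPM or more, by Pearson's r of log2 CPM, as a description. These libraries share depth and the mixture of cells described above. *Fth1* was closest to *Qdpr* (r = 0.985, Spearman's rho = 0.981), *Nudt3* (0.981 and 0.962) and *Ccdc85b* (0.979 and 0.975). *Mt3* was closest to *Enho* (0.981 and 0.962), *1500009C09Rik* (0.98 and 0.962) and *Rida* (0.977 and 0.966), and *Mt1* to *Mpp6* (0.955 and 0.95), *Chmp5* (0.953 and 0.916) and *Slc25a33* (0.952 and 0.954).

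*Slc11a1* followed *Itgb2* (0.976 and 0.954), which encodes the integrin partner of CD11b, *Laptm5* (0.972 and 0.967) and *Lcp1* (0.968 and 0.937). *Ftl1* followed *Ostf1* (0.954 and 0.903), *Cd300c2* (0.939 and 0.861) and *Dbnl* (0.926 and 0.818). *Tfrc* was closest to *Car4* (0.943 and 0.942), *Itm2a* (0.931 and 0.919) and *Apcdd1* (0.925 and 0.922). For *Hmox1* these were *Bcl10* (0.949 and 0.958), *Herpud1* (0.918 and 0.959) and *Taf7* (0.891 and 0.903). *Slc11a2* was closest to *Zfp715* (0.941 and 0.851), *Mob1b* (0.932 and 0.924) and *Rnf111* (0.928 and 0.824), and *Slc40a1* to *Ankrd49* (0.891 and 0.825), *Cwf19l2* (0.875 and 0.815) and *Tfap4* (0.87 and 0.797). *Mt2*, whose counts are uncertain, was closest to *Ube2e3* (0.877 and 0.88), *Srp9* (0.875 and 0.867) and *Rab18* (0.866 and 0.876).

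Among the members themselves, *Fth1*, *Mt1* and *Mt3* deviated together (Pearson's r of 0.868 to 0.956 over the same 22 libraries) and opposite to *Slc11a1* (r of -0.768 to -0.698). *Fth1* and *Ftl1* did not follow each other (r = -0.118).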

How the data were processed

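Bulk RNA-seq of 9 cortex and 22 CD11b+ microglia libraries was used. The authors checked reads with FastQC 0.11.7, trimmed them with Trimmomatic 0.39, aligned them with STAR 2.7.9a to GRCm38 and counted uniquely mapped reads per Gencode gene irrespective of strand with featureCounts (2.12.0, R 4.2.2). The deposited counts are not normalized. Variance-stabilized values, which the authors deposited on a log2 scale, served for limma only. Groups were taken from the labels.

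Each comparison was fitted on the libraries of its groups with edgeR 4.0.16 (R 4.3.3, TMM, two-sided quasi-likelihood test, Benjamini-Hochberg, FDR 0.05), for genes reaching 10 counts in 3 or more libraries, with SE from the log2FC and F statistic. CPM levels use TMM over all 31 libraries. Counting precision was set by 16.2 to 43.1 M counts per library. The fits were tested on simulated data. Alternatives were DESeq2 1.42.0 (size factors, Wald test), no count minimum, limma 3.58.1, all groups of a table, and each library left out. Leaving out the CD11b+ libraries above 50000 CPM of oligodendrocyte markers was chosen after seeing the data, as were the ratios to marker sums. The members and lists were chosen with earlier results of these data known. Named were all members, up to 3 rises and 3 falls per comparison, the largest among called list genes averaging 5 CPM or more, and the 3 most similar genes per member. Transferrin, planned under the symbol Tf, was read as Trf. Exon overlaps and transcripts are from Gencode M21 and promoters from RefSeq, both on GRCm38, and the authors' annotation release is a later one. Mouse number 236 labels an A- CD11b+ and an A+ cortex library, and both labels were used as given.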

Additional observations from a re-analysis of the deposited data

Results flagged for a closer look

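In groups of 4 to 10 libraries, the highest or lowest library was set against Dixon's 95% critical value for its gap to the nearest other library, as a share of the range of the group. Of 60 such tests on members, 4 exceeded it, and chance alone flags about 1 in 20. *Ftl1* was highest in cortex of A+/Pki/ki mouse 222 (189 CPM, next 179, share 0.867). *Slc11a1* was lowest in CD11b+ microglia of A+/Pki/ki mouse 335 (191 CPM, next 312, share 0.843), the library of that group with the lowest sum of microglia markers. *Mt2* was highest in the same library (0.453 CPM, next 0.0522, share 0.966), at counts too low to measure the gene. *Hmox1* was highest in CD11b+ microglia of A-/Pwt/wt mouse 224 (78.8 CPM, next 47, share 0.585), which also had the highest sum of border macrophage markers (622 CPM). The cause of these values was not tested.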

How the results depend on the processing

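With DESeq2 size factors in edgeR, no member changed its direction or its call. DESeq2's Wald test called 1 member and 1 list gene in APP/PS1 with KI against A-/Pwt/wt microglia, 13 list genes in KI males, and 1 member and 1 list gene in the interaction. Of all genes, it called 956 of 17446, 3719 of 16373 and 1185 of 17619 in these comparisons. Without the count minimum, 5 members were called in KI males and 0 list genes in APP/PS1 microglia, and the interaction of *Slc40a1* was -0.018. With that minimum, 3 members and 16.4% of all genes were called in KI males. The share of all genes called without it is not given here, so the rise in members has no background beside it. With limma, or with all groups of the table, 1 list gene was called in APP/PS1 with KI. The KI difference of *Slc11a2* in APP/PS1 microglia (-0.01) became 0.0024 with limma and 0.048 with all groups, that of *Fth1* in cortex (-0.01) 0.00058 without the count minimum and 0.0064 with limma, and the difference of *Mt2* between A+/Pwt/wt and A-/Pwt/wt microglia (0.01) became -0.0024 with all groups.

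Without the CD11b+ libraries above 50000 CPM of oligodendrocyte markers, chosen after seeing the data, 1 member and 4 list genes were called in APP/PS1 with KI, 1 list gene in KI males, and 4 members and 6 list genes in the interaction. Of all genes, 673 were then called in APP/PS1 (224 with all libraries), 1182 in APP/PS1 with KI (286), 922 in KI males (2685) and 2532 in the interaction (0). Directions changed for *Slc11a2* in KI APP/PS1 microglia (0.015) and between tissues (0.066 and 0.11), for *Fth1* (0.065), *Hmox1* (-0.00027) and *Mt2* (-0.025) in APP/PS1 microglia, for *Tfrc* in APP/PS1 with KI (-0.044) and for *Hmox1* in KI males (0.15). The cause was not tested.

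With 1 library left out at a time, the members called were 2 to 6 in KI males, 0 to 5 in the interaction and 6 to 8 between tissues. The list genes called were 0 to 2 in APP/PS1, 0 to 3 in APP/PS1 with KI, 2 to 26 in KI males and 0 to 18 in the interaction, where the highest counts came without KI mouse 104 and without A+/Pki/ki mouse 335. Of all genes, 894 to 5439 were called in KI males, 91 to 497 in APP/PS1 and 57 to 1097 in APP/PS1 with KI. None of the values that changed direction was called in the main test. These were, for the KI difference, *Slc11a2* in APP/PS1 microglia (-0.13 to 0.13), *Fth1* (-0.098 to 0.065), *Ftl1* (-0.076 to 0.066), *Tfrc* (-0.17 to 0.0028), *Slc11a2* (-0.070 to 0.010) and *Slc11a1* (-0.20 to 0.041) in cortex, and *Slc40a1* in males (-0.13 to 0.012). In APP/PS1 they were *Fth1* (-0.36 to 0.056), *Hmox1* (-0.070 to 0.25), *Mt1* (-0.085 to 0.42), *Mt2* (-0.44 to 0.40) and *Mt3* (-0.39 to 0.43). In APP/PS1 with KI they were *Ftl1* (-0.028 to 0.14), *Tfrc* (-0.072 to 0.30) and *Mt1* (-0.46 to 0.12). Between tissues they were *Tfrc* (-0.27 to 0.0028) and *Slc11a2* (-0.16 to 0.066 and -0.12 to 0.11), and in the interaction *Slc40a1* (-0.089 to 0.17).

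DESeq2's Wald test called 636 genes in APP/PS1, 956 in APP/PS1 with KI, 3719 in KI males and 1185 in the interaction. Scaling levels by total count moved 19 of 80 group means, by -8.59% to 10.5%. A mean counted as moved when it changed by more than 1 SD of its group. For the single A-/Pwt/wt cortex library, which has no SD, the limit was the binomial confidence interval of its count. No paired analysis was possible because the groups compared share no mouse numbers. The 1 A-/Pwt/wt cortex library allows no test. *Mt2* was below the count minimum in both KI comparisons of CD11b+ microglia.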
